A study of Mus musculus with 116 samples.

Results

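The 47 genes described here are homeobox genes that lie outside the Hox clusters. They encode transcription factors that bind DNA through a homeodomain and set the regional or cellular identity of embryonic tissue. The members were chosen by name, from the families of Six2, Irx1, Lhx1, Msx1, Nkx2-2, Tlx1, Vax1, Barx1 and Otx1, from paired-type genes such as Prrx1 and from several smaller families. Earlier results of these data were known when the members were chosen. They are 47 of the 53379 gene rows of the count files. Their levels were read in 55 of 68 libraries of green cells, those with at least 1000000 uniquely aligned reads that made up at least 60% of all reads of the library.

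Green cells were sorted by flow cytometry from mouse neocortex, with 2 to 3 cortices pooled per sample, at 3 embryonic ages, called E12.5, E13.5 or E16.5 here (E12, E13 or E16 in the labels), and at birth (P0). All groups carry MADM cassettes on chromosome 7 and Emx1-Cre, which is active in the progenitors of the dorsal forebrain. Mosaic analysis with double markers (MADM) exchanges the chromosome arms in rare dividing cells, so that a green cell and a sister of another color arise. In control-MADM (MADM7-GT/TG) the green cells are Eed+/+. In Eed-MADM the green cells are Eed-/- and scarce in a tissue that is mostly Eed+/-, and in cKO-Eed-MADM the green cells are Eed-/- in a tissue where the other Cre-exposed cells are Eed-/- as well. The green cells of all 3 groups carry both copies of the recombined arm of chromosome 7 from the father, where Dbx1, Nkx6-2 and Phox2a of the members lie. The labels give the strain as CD1, and the study's methods describe a mixed background and animals of both sexes. In control-MADM 5 libraries were used at E12.5, then 2, 3 and 5 at the later ages. In Eed-MADM the numbers were 8, 2, 5 and 9, and in cKO-Eed-MADM each age had 4. Replicates are separate pools, and p-values measure the spread between these pools.

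Eed is a core subunit of Polycomb repressive complex 2 (PRC2), which methylates histone H3 at lysine 27 and keeps developmental genes silent outside their own tissue. Homeobox genes with CG-rich promoters are classical PRC2 targets. In the normal neocortex only some homeobox genes are used, such as Otx1 in progenitors and deep layer neurons and Lhx9 in early neurons. Most of the members act elsewhere: in the eye, the hypothalamus, the spinal cord, the heart, the jaws or the limbs.

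For the members called in the mosaic, the sequence around the annotated start site is given below where the RefSeq table holds it. Where transcription starts in these cells was not measured. Each window runs from 250 bases before to 50 bases after the annotated start (GRCm38.p6, coordinates counted from 1), is written 5′ to 3′ on the strand of the gene, and has every CG pair in capitals. Irx2 lies at chr13:72628570-72628869 (+ strand, 25 CG pairs), Isl1 at chr13:116309639-116309938 (- strand, 37), Nkx2-5 at chr17:26841516-26841815 (- strand, 9) and Barx1 at chr13:48662786-48663085 (+ strand, 50). The window of Nkx2-5 lies within the gene as counted (26838664 to 26845009).
Irx2: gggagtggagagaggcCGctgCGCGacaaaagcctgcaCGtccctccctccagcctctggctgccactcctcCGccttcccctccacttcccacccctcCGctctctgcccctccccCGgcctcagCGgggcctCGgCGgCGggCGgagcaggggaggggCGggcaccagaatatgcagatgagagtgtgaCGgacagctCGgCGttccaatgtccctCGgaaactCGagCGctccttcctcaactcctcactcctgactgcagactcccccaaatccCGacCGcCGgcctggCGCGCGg
Isl1: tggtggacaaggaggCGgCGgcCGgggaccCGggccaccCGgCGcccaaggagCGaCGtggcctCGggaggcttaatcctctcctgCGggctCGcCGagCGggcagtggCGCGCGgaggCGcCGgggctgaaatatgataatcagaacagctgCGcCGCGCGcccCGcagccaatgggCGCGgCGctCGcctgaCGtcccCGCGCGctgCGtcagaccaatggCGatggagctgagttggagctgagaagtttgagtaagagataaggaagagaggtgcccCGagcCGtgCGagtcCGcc
Nkx2-5: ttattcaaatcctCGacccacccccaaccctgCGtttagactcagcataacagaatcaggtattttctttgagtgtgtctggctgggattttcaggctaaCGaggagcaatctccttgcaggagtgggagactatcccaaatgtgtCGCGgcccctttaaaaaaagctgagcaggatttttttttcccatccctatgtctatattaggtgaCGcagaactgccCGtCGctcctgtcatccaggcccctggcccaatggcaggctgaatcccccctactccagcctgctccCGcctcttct
Barx1: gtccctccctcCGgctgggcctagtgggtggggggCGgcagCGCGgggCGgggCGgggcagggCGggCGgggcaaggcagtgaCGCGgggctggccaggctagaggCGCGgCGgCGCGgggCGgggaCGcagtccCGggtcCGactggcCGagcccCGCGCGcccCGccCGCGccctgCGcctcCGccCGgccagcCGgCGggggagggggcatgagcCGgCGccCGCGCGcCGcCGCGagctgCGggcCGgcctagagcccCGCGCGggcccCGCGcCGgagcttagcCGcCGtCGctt
CG pairs are the letters that a methyltransferase can modify in DNA and that mark CpG islands when dense. The windows of these members thus range from 9 to 50 CG pairs, with Barx1 in the upper 0.855% of all windows and Nkx2-5 in the upper 45.8%. Over the 37 members with an entry, 43 windows held 4 to 50 CG pairs with a median of 17, where all 32851 RefSeq windows of the same length had a median of 7. CG was present in 94.6% of all windows. Of the members' windows 41.9% held 20 or more CG pairs, against 26.5% of all windows. The letters TATAAA, searched on both strands, were present in 11.6% of the members' windows and in 13.6% of all windows. No window is printed for Vax2 or Otx1, which have no entry.

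Levels are given in CPM, reads per 1000000 reads on genes after TMM scaling of the libraries of one age. Green libraries held 865832 to 7249098 reads on genes, with a median of 1718618 at E12.5 and of 5004967, 5039612 and 5217405 at the later ages in turn. The youngest cells went directly into lysis buffer and older cells into a buffer for RNA extraction. The youngest age and its collection therefore cannot be told apart. Eed, the targeted gene, was counted over the whole gene, including the exons outside the deleted part, and is therefore only a partial check of the labels. Its level at P0 was 26.9 to 33.5 CPM in control-MADM, 11.4 to 19.6 CPM in Eed-MADM and 9.17 to 16.1 CPM in cKO-Eed-MADM. At E16.5 the respective levels were 31.3 to 49.2, 13.2 to 22.9 and 12.9 to 26.4 CPM. The E13.5 levels were 56.9 to 69.0, 27.5 to 50.6 and 15.2 to 24.1 CPM, and those of E12.5 were 81.1 to 159.5, 31.9 to 88.9 and 35.8 to 47.7 CPM. Eed was thus lower in every cKO-Eed-MADM library than in every control-MADM library at each age, and the Eed-MADM and control-MADM libraries overlapped at E12.5 only. In the test its change passed the threshold at E16.5 and P0 for cKO-Eed-MADM (log2 fold change -1.10 ± 0.31 SE, adjusted p = 0.0314, and -1.32 ± 0.25, adjusted p = 0.000378) and at P0 for Eed-MADM (-0.93 ± 0.20, adjusted p = 0.0132). Defining genes of the cortical lineage were present in every group: the summed level of 10 excitatory lineage markers was 3302 to 4484 CPM in the control-MADM and Eed-MADM libraries of E16.5 and 1739 to 2168 CPM in cKO-Eed-MADM.

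At E12.5 single libraries carried the highest levels of several members. Eed-MADM replicate 9 held the fewest genes with a read (15720) and had Isl1 at 684 CPM, where the other 7 libraries held 2.73 to 60.9 CPM. cKO-Eed-MADM replicate 3 had a summed choroid plexus and hem level of 34660 CPM and Otx2 at 364 CPM. Without the former or without both, 0 members were called at E12.5 in each comparison. At E16.5 Eed-MADM replicate 4 stood apart with choroid plexus and hem markers at 4550 CPM, and without it 16, 1 and 17 members were called in place of 14, 1 and 15 (cKO-Eed-MADM against control-MADM, Eed-MADM against control-MADM, and cKO-Eed-MADM against Eed-MADM).

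As a group, the members were broadly present at E12.5, almost silent in control cells at E16.5 and P0, and widely present in cKO-Eed-MADM cells at those late ages. In control-MADM, markers of meninges and mesenchyme summed to 32.7 to 1340 CPM at E12.5. At E16.5 and P0 they summed to 4.55 to 9.30 and 8.33 to 15.3 CPM. Red blood cell markers summed to 2.91 to 2038 CPM in the same E12.5 libraries. The part of such cells in the members' E12.5 levels was not tested. Among the control-MADM libraries, 9 members had no read in any library at E12.5. That number was 20, 31 and 16 at the later ages in turn. The cKO-Eed-MADM libraries left 5, 9, 3 and 2 members without a read, and the Eed-MADM libraries 1, 18, 14 and 4. These counts also depend on the number and depth of the libraries, so the count per library is given too. A control-MADM library had reads for 11 to 13 members at E16.5 and 13 to 18 at P0. An Eed-MADM library had reads for 12 to 20 and 25 to 37 members, and a cKO-Eed-MADM library for 36 to 42 and 40 to 45. The E16.5 ranges of control-MADM and Eed-MADM overlapped, while all 3 ranges were apart at P0.

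**Figure D1:**
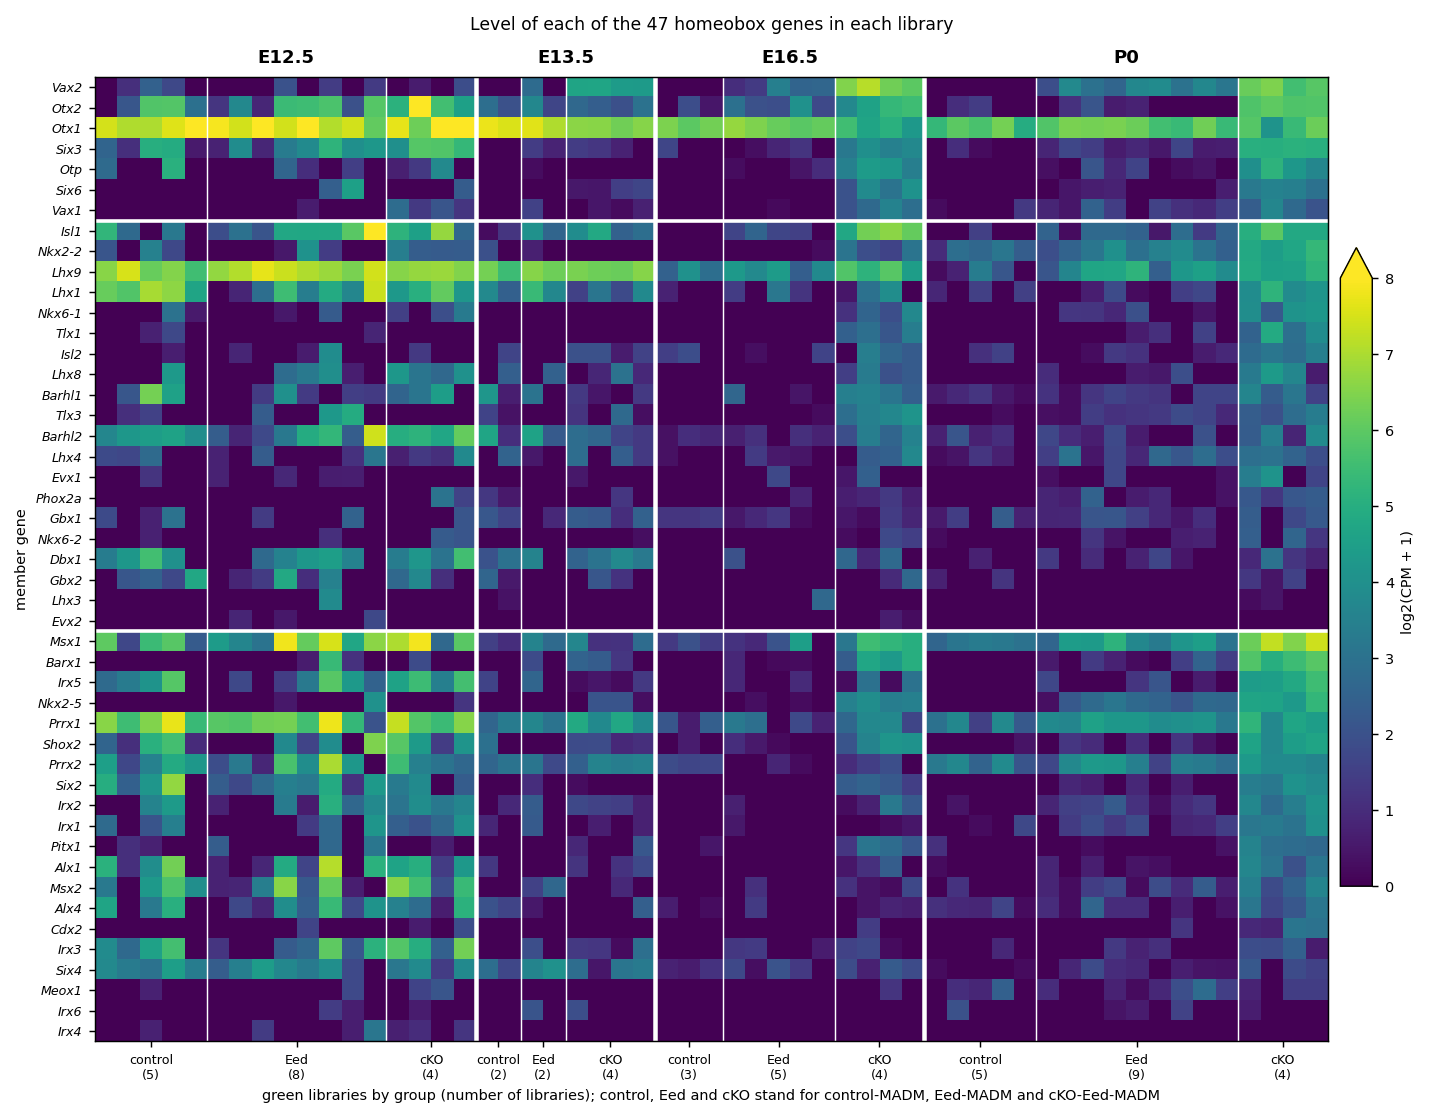
Level of each of the 47 members (rows, log2 of CPM + 1) in each of the 55 green libraries (columns, ordered by age and by group). Most rows are dark in the control-MADM columns of E16.5 and P0 and light in the cKO-Eed-MADM columns of the same ages, and Otx1 is at 16.3 CPM or more in every column.

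Without Otx1, which made up most of the summed control level at the late ages, the other members together averaged 23.2 CPM at E16.5 in control-MADM, 48.5 CPM in Eed-MADM and 450.3 CPM in cKO-Eed-MADM. At P0 the averages were 42.4, 113.7 and 741.6 CPM. The lowest cKO-Eed-MADM library (293.3 CPM at E16.5, 635.0 CPM at P0) lay above the highest library of the other groups at both ages (59.4 and 166.4 CPM). The averages of E13.5 were 144.8, 211.5 and 211.2 CPM, with the 4 cKO-Eed-MADM libraries (194.9 to 225.5 CPM) just above both control-MADM libraries (98.8 and 190.9 CPM). Those of E12.5 were 618.1, 708.7 and 869.7 CPM, with overlap between all groups. In bulk samples, fewer cells that express a gene and less RNA of it per cell cannot be told apart.

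**Figure D2:**
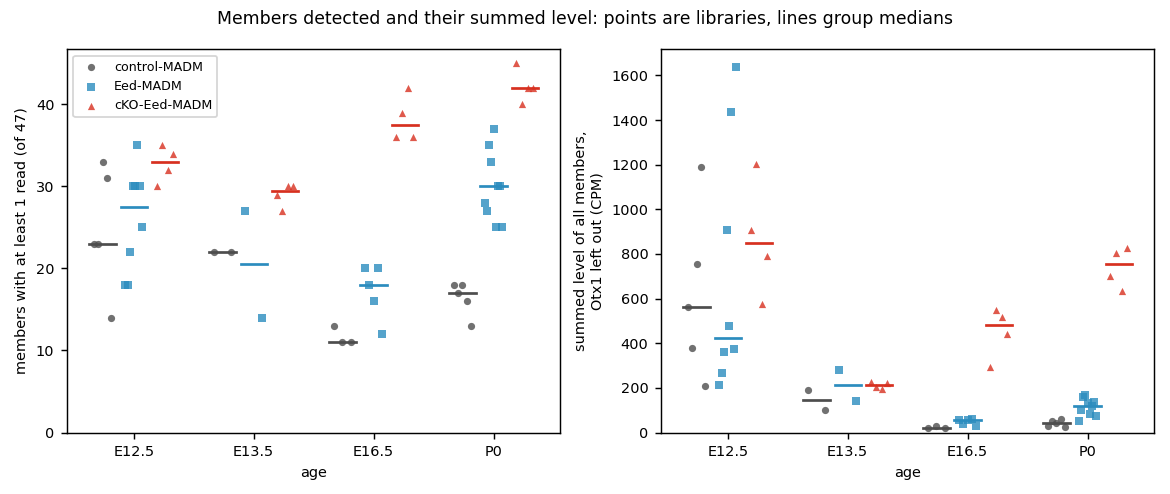
Left, number of the 47 members with at least 1 read per green library, and right, summed level in CPM of all members but Otx1 (linear axis), by age and group, with 1 point per library and a line at the group median. At P0 the cKO-Eed-MADM libraries have reads for 40 to 45 members and sum to 635.0 CPM or more.

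Each member was tested together with all other genes of its age in edgeR's quasi-likelihood test, with p-values adjusted by the Benjamini-Hochberg method over all genes tested. A gene entered the test with a mean count over 1 at E12.5 and over 10 at later ages. Of the 47 members, 39 entered the test at E12.5, then 16, 21 and 28 at the later ages. Without the cKO-Eed-MADM libraries, 38, 13, 6 and 10 members would have passed the same limit. At the late ages most tested members therefore entered through the group in which they were high, and their share of calls is not evidence for the list.

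In cKO-Eed-MADM against control-MADM at E16.5, 13 members rose and Otx1 fell, while 6.16% of all genes tested rose and 2.42% fell. At P0, 24 members rose and none fell, with 14.2% of all genes tested called higher and 10.0% called lower. The libraries of both groups did not overlap, with cKO-Eed-MADM higher, for 25 of the 47 members at E16.5 (6.42% of all genes with a read) and for 32 at P0 (5.81%). In Eed-MADM against control-MADM, 1 member rose at E16.5 (0.24% of all genes tested) and 5 at P0 (1.52%). Libraries without overlap and with Eed-MADM higher were seen for 1 member at E16.5, Vax2 (1.97% of all genes), and for Vax2 and Nkx2-5 at P0 (0.43%). Comparing the 2 kinds of Eed-/- cells directly, cKO-Eed-MADM was higher than Eed-MADM for 14 members at E16.5 (4.45%) and lower for Otx1 (2.58%), and was higher for 23 members at P0 (11.2%). The libraries did not overlap, with cKO-Eed-MADM higher, for 18 members at E16.5 (3.16%) and 22 at P0 (3.11%). The comparisons share libraries, so their counts are not independent of each other. The members were chosen with earlier results of these data known, so the counts without overlap are not evidence for the list either.

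At the early ages no member passed the threshold. At E12.5 the test called 0 members in each of the 3 comparisons (0% of all genes tested higher in each), with 1, 7 and 3 members at an unadjusted p under 0.05 in cKO-Eed-MADM against control-MADM, Eed-MADM against control-MADM and cKO-Eed-MADM against Eed-MADM, and DESeq2 called 0 in each as well. Here the spread was widest, with a median biological coefficient of variation of 0.629, against 0.281 at E16.5 and 0.273 at P0. At E13.5 the test called 0 members, with 5, 2 and 3 at an unadjusted p under 0.05, and 0.0297%, 0% and 0.0149% of all genes tested called higher. DESeq2 called 3, 0 and 0 members there. Over all genes the number of calls at E13.5 depended on the test. In cKO-Eed-MADM against control-MADM, with 2 control-MADM libraries, DESeq2 called 200 genes higher and 89 lower, where the main test called 4 and 1. Few calls at this age thus do not show that levels were unchanged. The libraries of cKO-Eed-MADM all lay above those of control-MADM for Vax1 and Barhl2 at E12.5 (0.604% of all genes) and for Six6, Irx3, Isl1, Prrx1 and Vax2 at E13.5 (6.06%).

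Of the 7 forebrain and eye regulators, all tested at E16.5, 5 rose and 1 fell in cKO-Eed-MADM against control-MADM, and 4 of the 5 tested at P0 rose. Of all genes tested, 6.16% rose and 2.42% fell at E16.5, and 14.2% rose at P0. Vax2 (chromosome 6, 83711264 to 83738313, GRCm38), which patterns the ventral eye, was at 0 CPM in every control-MADM library from E13.5 on. At E13.5 it was at 0 and 5.96 CPM in the Eed-MADM libraries and at 19.5, 19.8, 24.8 and 25 CPM in the cKO-Eed-MADM libraries. At E16.5 the Eed-MADM libraries held 1.05, 1.59, 5.03, 5.17 and 10.0 CPM and the cKO-Eed-MADM libraries 62.9, 76.0, 88.1 and 141 CPM. At P0 Vax2 ran from 2.80 to 13.6 CPM with a median of 7.83 CPM over the 9 Eed-MADM libraries and was at 47.2, 60.2, 71.3 and 86.9 CPM in cKO-Eed-MADM. The 3 groups thus stood in the same order without overlap at E16.5 and P0: absent in control cells, low in mosaic Eed-/- cells and highest in Eed-/- cells of mutant tissue.

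For a gene without a control read, folds were computed from reads summed over each group per summed depth, against 3 counts over all control-MADM libraries, and not from the group means. On this scale Vax2 was at least 494-fold higher in cKO-Eed-MADM at E16.5 (adjusted p = 3e-06) and at least 601-fold higher at P0 (adjusted p = 4.22e-10). In Eed-MADM it was at least 26.2-fold higher at E16.5 (adjusted p = 0.0179) and at least 85.4-fold higher at P0 (adjusted p = 3.97e-07). The direct difference between cKO-Eed-MADM and Eed-MADM was 4.28 ± 0.46 (log2, SE) at E16.5 and 2.89 ± 0.30 at P0 (adjusted p = 1.04e-05 and 9.66e-07). At E13.5 cKO-Eed-MADM was at least 85.6-fold higher with an adjusted p of 0.0612, above the threshold. At E12.5 Vax2 was at 0 to 4.54 CPM in all groups. The E16.5 call in Eed-MADM was lost in 7 of 21 alternatives, when any single control-MADM library was left out (adjusted p = 0.105 to 0.132) and with the newer form of the test (0.203), only the 2 groups (0.0669), the replicate number as a block (0.0696) or the first strand column (0.066), and the calls at P0 held in all 19 alternatives.

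Otx2, a regulator of midbrain, eye and choroid plexus, was present at E12.5 in all groups (0 to 364 CPM) and at E13.5 at 2.20 to 12.1 CPM. In control-MADM it was at 0, 0.413 and 2.70 CPM at E16.5 and at 0 to 1.67 CPM at P0. In cKO-Eed-MADM it was at 12.3, 23.2, 39.5 and 44.4 CPM at E16.5 and at 54.0, 55.0, 55.2 and 64.3 CPM at P0, a rise of 5.04 ± 0.96 and 6.61 ± 0.90 (log2, SE, adjusted p = 0.00175 and 1.35e-05). The 9 Eed-MADM libraries of P0 held 0 to 3.30 CPM with a median of 0 CPM and overlapped with control-MADM. At E16.5 the Eed-MADM libraries held 2.41 to 15.5 CPM and overlapped with both other groups. The difference from cKO-Eed-MADM (2.29 ± 0.64, adjusted p = 0.034) was lost in 8 of 21 alternatives, among them leaving out Eed-MADM replicate 1, 2, 3 or 5 or cKO-Eed-MADM replicate 2, 3 or 4 (adjusted p = 0.0553 to 0.122). Markers of the choroid plexus and hem, where Otx2 is also used, summed to 26.4 to 124.7 CPM in control-MADM and 14.7 to 76.7 CPM in cKO-Eed-MADM at E16.5, and to 6.36 to 118.4 and 32.8 to 113.9 CPM at P0. Of the exon bases of Otx2, 3.98% are shared with other genes.

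Six3, which specifies the anterior forebrain and eye field, showed the same late pattern with little spread. At P0 it was at 31.1, 31.9, 32.0 and 33.8 CPM in cKO-Eed-MADM, at 0 to 1.06 CPM in control-MADM and at 0.437 to 2.24 CPM in Eed-MADM. The rise over control-MADM was 6.89 ± 0.71 (log2, SE, adjusted p = 1.47e-07). At E16.5 Six3 reached 8.25 to 14.9 CPM in cKO-Eed-MADM, higher than Eed-MADM (4.52 ± 1.01, adjusted p = 0.00714), while the difference from control-MADM, which held 0, 0 and 2.20 CPM, missed the threshold (adjusted p = 0.0545). Otp, a regulator of hypothalamic neuroendocrine neurons, had no read in any control-MADM library of E16.5 or P0 and stood at 9.63, 10.3, 18.0 and 19.9 CPM and at 11.8, 14.7, 17.9 and 34.8 CPM in cKO-Eed-MADM. It was at least 77.7-fold higher at E16.5 (adjusted p = 0.000424) and at least 166-fold higher at P0 (adjusted p = 2.53e-05). Vax1 and Six6, regulators of the optic stalk and the retina, also rose at E16.5 from 0 reads in control-MADM (3.02 to 10.7 and 3.02 to 15.9 CPM in cKO-Eed-MADM) and were under the count limit at P0.

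Otx1 ran the other way. It was the member with the highest level per kb of exon in control-MADM at every age, with averages of 32.8, 37.3, 13.7 and 9.61 CPM per kb from the youngest to the oldest age. At E16.5 it was at 62.1, 76.9 and 83.9 CPM in control-MADM, at 61.3 to 105 CPM in Eed-MADM and at 18.1, 24.7, 32.6 and 45.3 CPM in cKO-Eed-MADM. It fell by 1.30 ± 0.27 on the log2 scale (SE, adjusted p = 0.00329) against control-MADM and by 1.37 ± 0.24 (adjusted p = 0.000987) against Eed-MADM. At E13.5 the cKO-Eed-MADM libraries (76.1, 92.1, 93.6 and 96.6 CPM) also lay below both control-MADM libraries (187 and 218 CPM), with an adjusted p of 0.105. At P0 the libraries overlapped, with 29.8 to 79.2 CPM in control-MADM and 16.3 to 72.6 CPM in cKO-Eed-MADM (log2 fold change -0.12 ± 0.32, adjusted p = 0.825). Thus Otx1 fell while its paralogue Otx2 rose at E16.5.

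**Figure D3:**
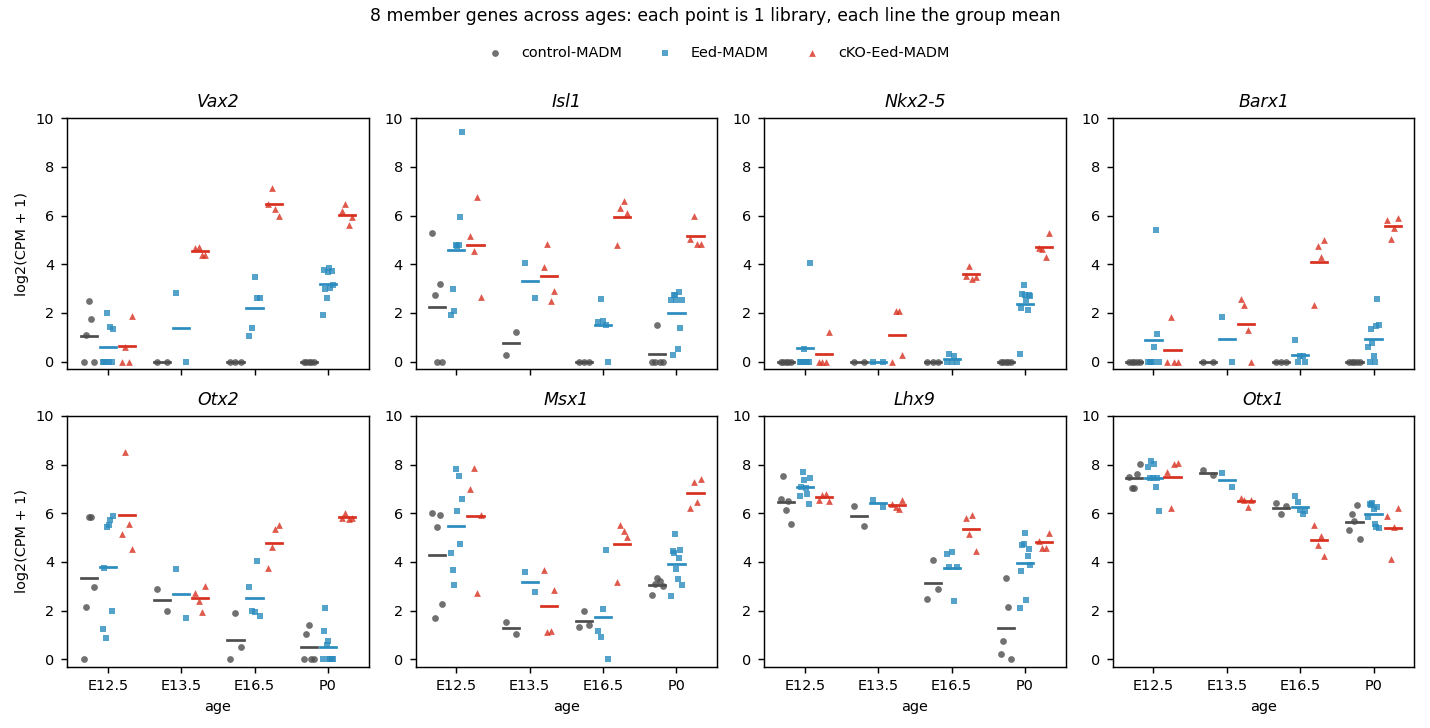
Level in CPM (log2 of CPM + 1) of Vax2, Isl1, Nkx2-5, Barx1, Otx2, Msx1, Lhx9 and Otx1 by age and group, with 1 point per green library and a line at the group mean. Vax2 and Nkx2-5 separate the 3 groups at P0, Lhx9 starts high in all groups at E12.5, and Otx1 is lowest in cKO-Eed-MADM at E16.5.

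The regulators of neuron types outside the cortex followed, with 5 of 20 members called higher in cKO-Eed-MADM against control-MADM at E16.5 (9 tested) and 10 at P0 (11 tested). The shares of all genes tested were 6.16% and 14.2%. Isl1 (chromosome 13, 116298281 to 116309689, GRCm38), which specifies motor, sensory and striatal neurons, was at 0 CPM in the 3 control-MADM libraries of E16.5, at 0, 1.86, 2.10, 2.20 and 5.00 CPM in Eed-MADM and at 26.9, 68.2, 78.0 and 96.0 CPM in cKO-Eed-MADM. It was at least 360-fold higher in cKO-Eed-MADM than in control-MADM (adjusted p = 1.46e-05) and 4.94 ± 0.57 (log2, SE) higher than in Eed-MADM (adjusted p = 2.26e-05). At P0 Isl1 was at 27.3, 27.6, 31.5 and 62.8 CPM in cKO-Eed-MADM, at 0.203 to 6.29 CPM with a median of 4.82 CPM in Eed-MADM and at 0 CPM in 4 control-MADM libraries and 1.83 CPM in the other. The log2 fold change against control-MADM was 6.51 ± 0.91 in cKO-Eed-MADM (adjusted p = 1.55e-05) and 3.23 ± 0.84 in Eed-MADM (adjusted p = 0.048). The Eed-MADM call stood at the threshold and was lost in 12 of 19 alternatives, among them leaving out control-MADM replicate 1, 2, 5 or 6 or cKO-Eed-MADM replicate 1, 3 or 4 (adjusted p = 0.0536 to 0.116). At E13.5 the levels were 0.205 and 1.34 CPM in control-MADM, 5.12 and 15.5 CPM in Eed-MADM and 4.63 to 27.2 CPM in cKO-Eed-MADM, so that neither mutant group overlapped with control-MADM, with adjusted p of 0.637 and 0.155. Isl1 is also used by striatal cells of the subpallium, whose markers are given at the end.

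Lhx1 and Lhx9 had been present in early control cells. Lhx1, a regulator of Cajal-Retzius cells and spinal interneurons, was at 24.7 to 124 CPM in the control-MADM libraries of E12.5, at 0 to 1.84 CPM in those of P0 and at 13.7, 13.8, 16.9 and 35.9 CPM in cKO-Eed-MADM at P0 (log2 fold change 4.40 ± 0.97, adjusted p = 0.00168). The Eed-MADM libraries of P0 (0 to 2.56 CPM) overlapped with control-MADM. Lhx9, which marks early cortical and thalamic neurons, was high in all groups at E12.5 (45.6 to 206 CPM) and E13.5 (43.9 to 93.4 CPM). At P0 it had dropped to 0, 0.167, 0.704, 3.44 and 9.17 CPM in control-MADM, while Eed-MADM held 3.31 to 35.5 CPM with a median of 17.7 CPM and cKO-Eed-MADM 22.6, 22.6, 28.4 and 35.9 CPM. cKO-Eed-MADM was higher than control-MADM by 3.34 ± 0.79 (log2, SE, adjusted p = 0.00382), and the Eed-MADM difference of 2.71 ± 0.72 had an adjusted p of 0.0564. Between both kinds of Eed-/- cells the P0 difference was 0.63 ± 0.63 (adjusted p = 0.531), and their libraries overlapped. At E16.5 Lhx9 rose by 2.30 ± 0.52 in cKO-Eed-MADM against control-MADM (adjusted p = 0.00767). That call was lost without control-MADM replicate 1 or without replicate 3 (adjusted p = 0.0593 and 0.0568).

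Nkx2-2, a regulator of ventral neural tube and oligodendrocyte progenitors, was at 1.00 to 7.74 CPM in control-MADM at P0, at 2.80 to 15.2 CPM in Eed-MADM and at 20.7, 25.4, 27.2 and 39.4 CPM in cKO-Eed-MADM, a rise of 2.52 ± 0.46 over control-MADM (log2, SE, adjusted p = 0.000267). Isl2, a relative of Isl1 in motor and retinal ganglion neurons, rose from 0 to 1.94 CPM in control-MADM to 5.97 to 10.0 CPM in cKO-Eed-MADM at P0 (3.60 ± 1.01, adjusted p = 0.0108). Tlx3, a selector of excitatory sensory neurons in the spinal cord, was at 0 CPM in control-MADM and at 6.44 to 16.51 CPM in cKO-Eed-MADM at E16.5, at least 59.5-fold higher (adjusted p = 0.000298). Barhl2, a regulator of spinal and retinal neurons, reached 2.82 to 10.6 CPM in cKO-Eed-MADM at E16.5 against 0.276 to 1.08 CPM in control-MADM and 0 to 1.14 CPM in Eed-MADM. It passed the test against Eed-MADM (3.29 ± 0.83, adjusted p = 0.0174) and narrowly missed it against control-MADM (3.30 ± 1.02, adjusted p = 0.0517), and the former was lost without cKO-Eed-MADM replicate 2 or replicate 4 (adjusted p = 0.0569 and 0.0583). Tlx1 and Barhl1 also rose in cKO-Eed-MADM against control-MADM at both late ages, and Lhx4, Lhx8 and Nkx6-1 at P0. At the other end, Irx4 and Evx2 had no read in cKO-Eed-MADM at P0, Irx6 had 3 reads and Lhx3 had 2.

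Of the 20 regulators of body and limb tissues, 3 rose in cKO-Eed-MADM against control-MADM at E16.5 (5 tested) and 10 at P0 (12 tested). Among all genes tested, 6.16% and 14.2% rose. Nkx2-5, the heart regulator, had no read in any control-MADM library at any age. At E16.5 it was at 0 to 0.227 CPM in Eed-MADM and at 9.55, 10.2, 10.5 and 14.1 CPM in cKO-Eed-MADM. At P0 it was at 0.254 to 7.86 CPM with a median of 5.42 CPM in Eed-MADM and at 18.5, 24.0, 24.4 and 38.0 CPM in cKO-Eed-MADM. With Vax2 it was the other member whose 9 mosaic libraries of P0 all lay above control-MADM. The levels were at least 59.0-fold higher at E16.5 (adjusted p = 0.000323) and at least 253-fold higher at P0 (adjusted p = 7.12e-08) in cKO-Eed-MADM, and at least 46.1-fold higher at P0 in Eed-MADM (adjusted p = 3.45e-05).

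Barx1, a regulator of molars and stomach whose window above is the richest in CG pairs, was at 0 CPM in the control-MADM libraries of every age. In cKO-Eed-MADM it was at 4.02, 18.5, 25.7 and 31.2 CPM at E16.5 and at 31.4, 43.3, 55.9 and 59.5 CPM at P0, at least 107-fold and at least 473-fold higher than in control-MADM (adjusted p = 0.000251 and 1.89e-06). The Eed-MADM libraries of P0 held 0 to 4.90 CPM with a median of 0.683 CPM. Their difference from control-MADM (at least 12.3-fold, adjusted p = 0.0408) was lost in 10 of 18 alternatives, among them leaving out any single control-MADM library or cKO-Eed-MADM replicate 3 (adjusted p = 0.0513 to 0.0878). Irx2, a regulator of heart, limb and neural patterning, was at 0 CPM in 4 control-MADM libraries of P0 and 0.352 CPM in the other, at 0 to 3.93 CPM in Eed-MADM and at 5.91, 9.76, 12.1 and 16.4 CPM in cKO-Eed-MADM. With 2 reads over all control-MADM libraries, the ratio of summed reads per summed depth was 168 (95% counting interval 46 to 1396) in cKO-Eed-MADM and 21.4 (5.69 to 179.9) in Eed-MADM, with adjusted p of 1.28e-05 and 0.0304. The Eed-MADM call was lost in 6 of 16 alternatives, among them leaving out control-MADM replicate 1, 4, 5 or 6 (adjusted p = 0.0576 to 0.0819).

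Msx1, a regulator of craniofacial and dorsal neural tissue, was at 5.16, 7.03, 7.57, 8.17 and 9.00 CPM in control-MADM at P0, at 5.09 to 34.7 CPM with a median of 16.9 CPM in Eed-MADM and at 73.1, 87.8, 154 and 167 CPM in cKO-Eed-MADM. The log2 fold change was 4.02 ± 0.41 (SE) against control-MADM (adjusted p = 1.6e-07) and 2.88 ± 0.32 against Eed-MADM (adjusted p = 8.62e-07). The Eed-MADM difference from control-MADM, 1.15 ± 0.35, had an adjusted p of 0.0949. At E12.5 Msx1 was already at 2.25 to 63.6 CPM in control-MADM and at 5.53 to 233 CPM in cKO-Eed-MADM, with overlap.

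Six2, the kidney progenitor factor, was at 0 CPM in all control-MADM libraries of E16.5 and P0 and at 8.13, 9.60, 13.4 and 16 CPM in cKO-Eed-MADM at P0, at least 116-fold higher (adjusted p = 1.63e-05). Shox2, a regulator of limb bones and the cardiac pacemaker, was at 12.2, 20.7, 24.1 and 24.6 CPM in cKO-Eed-MADM at P0 and had 2 reads in control-MADM, a ratio of summed reads per summed depth of 306 (95% counting interval 84.2 to 2537, adjusted p = 3.43e-06). At E16.5 its levels were 3.22 to 17 CPM and 2 reads, a ratio of 93.3 on the same scale (25.6 to 775, adjusted p = 0.00524). Irx1, Irx5, Msx2 and Prrx1 were also called higher at P0. Prrx2, a mesenchymal regulator, was among the highest members per kb in control-MADM from E13.5 on (3.18, 1.20 and 4.27 CPM per kb). Its P0 libraries overlapped between the groups (3.18 to 13.3, 1.97 to 18.6 and 11.3 to 18.8 CPM), and its difference of 0.77 ± 0.51 between cKO-Eed-MADM and control-MADM did not pass the test (adjusted p = 0.297). At E16.5, where it was under the count limit, all Eed-MADM libraries (0 to 0.784 CPM) lay below all control-MADM libraries (2.16, 2.27 and 2.62 CPM).

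By family, the P0 calls in cKO-Eed-MADM against control-MADM covered 6 of the 7 LIM genes, both Msx genes, 3 of 4 Nkx genes, 3 of 6 Irx genes, 2 of 3 Bar genes, 3 of 8 paired-type genes and 1 of 2 Otx genes. In the family of Six2, 2 of 4 genes were called, and 1 of 2 in those of Tlx1 and Vax1. Of all genes tested, 14.2% were called higher at P0. The family totals include genes that were not tested, and most tested members entered through the cKO-Eed-MADM libraries. Dbx1, Gbx1, Gbx2, Evx1, Evx2, Meox1 and Cdx2 were under the count limit at P0, with group averages of 0 to 6.95 CPM in cKO-Eed-MADM and 0 to 1.40 CPM in control-MADM. Low or absent levels of these 7 genes limit what a test could show.

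**Figure D4:**
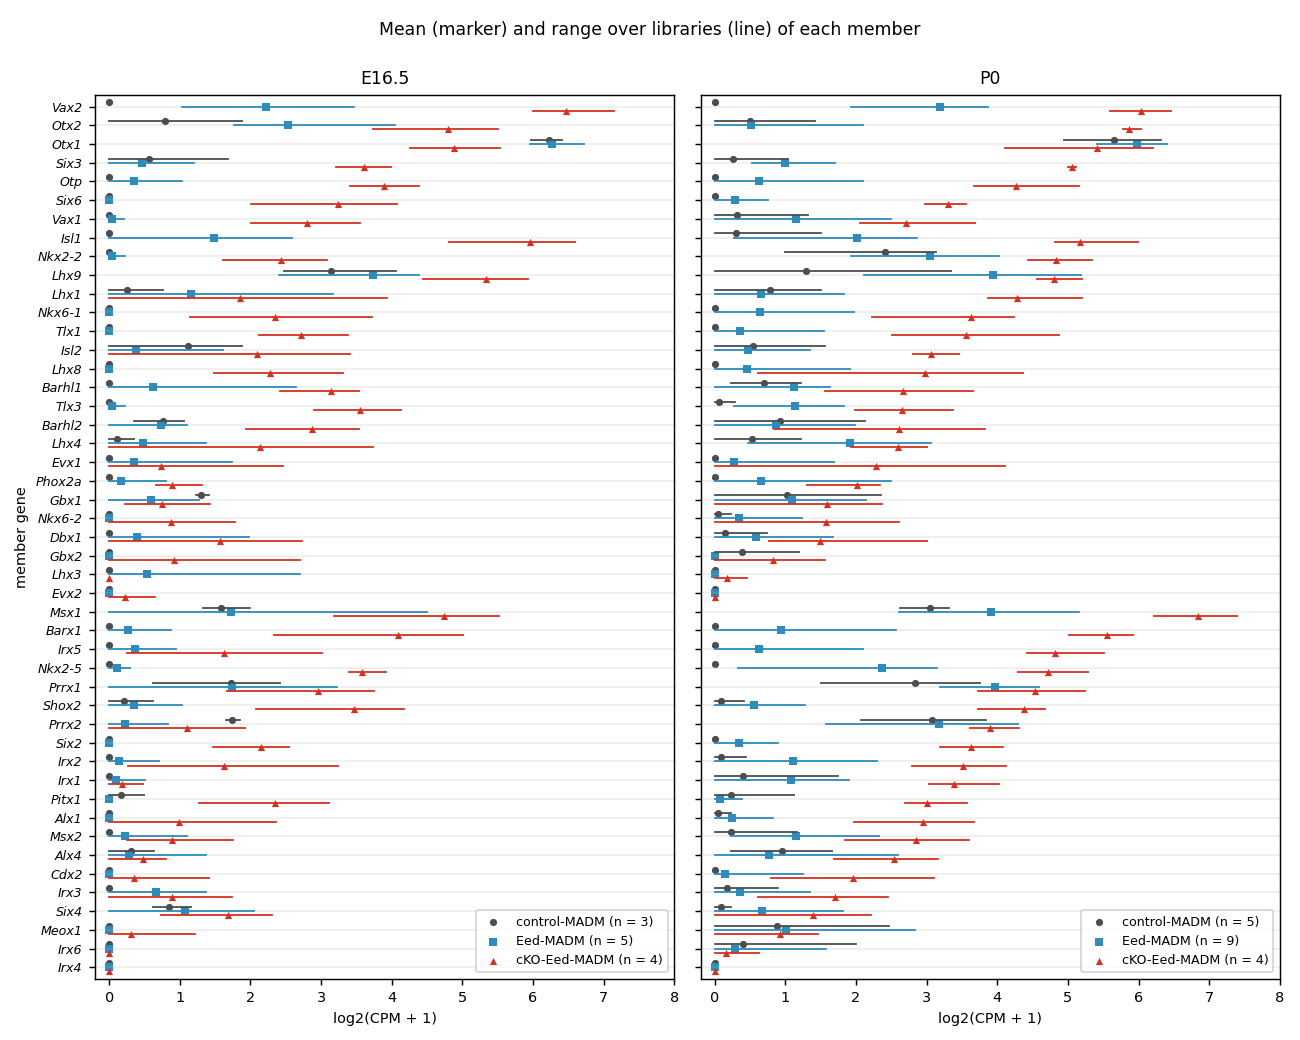
Level of the members (log2 of CPM + 1) in green cells of the 3 groups at E16.5 and P0, with the mean as a point and the lowest to highest library as a line. Most cKO-Eed-MADM ranges lie to the right of the other groups, Otx1 lies to the left at E16.5, and Lhx9 of Eed-MADM overlaps cKO-Eed-MADM at P0.

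The difference between the late ages was tested as an interaction, the change of a group's difference from control-MADM between E16.5 and P0. No member passed for cKO-Eed-MADM (0 of 32 tested, 5 at an unadjusted p under 0.05, 1 by DESeq2), with 1.25% of all genes tested called in either direction. Of these 32, 10 had no control-MADM read at either age, so that their change could not be estimated and they could not pass. The lowest adjusted p was 0.0916 for Nkx2-2, whose difference fell by 5.22 ± 1.46 on the log2 scale, as control-MADM went from no read at E16.5 to a mean of 4.92 CPM at P0. Without a control-MADM read at E16.5, the size of this fall has no firm estimate. No member passed for Eed-MADM (0 of 8 tested, 1 at an unadjusted p under 0.05, 1 by DESeq2), with 0.11% of all genes tested called. Vax2, 1 of these 8, had no control-MADM read either and could not pass. The lowest adjusted p was 0.114 for Prrx2.

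Other homeobox genes were examined with lists written apart from the 47 members. Of 31 further homeobox genes outside the Hox clusters, 8 of the 10 tested rose in cKO-Eed-MADM against control-MADM at E16.5, where 6.16% of all genes tested rose and 2.42% fell. At P0, 10 rose and 2 fell of 13 tested, beside 14.2% and 10.0% of all genes tested. The cKO-Eed-MADM libraries counted toward the count limit here too, so genes high in that group alone could enter. The shares called in this list and among the paralogues below are therefore not evidence for either list. Lbx1, which specifies muscle precursors and dorsal spinal interneurons, was called at E13.5, at least 105-fold higher in cKO-Eed-MADM (27.4 CPM on average) than in control-MADM (adjusted p = 0.0477), a call that was lost without control-MADM replicate 1 or without cKO-Eed-MADM replicate 1, 2 or 5, where 0 genes were called higher. Uncx, an axial skeleton and neuron regulator, was at least 565-fold higher at E16.5 (adjusted p = 1.14e-05), and En1, a midbrain and hindbrain regulator, at least 291-fold higher at P0 (adjusted p = 1.79e-08). Of 23 paralogues of the members, 3 rose and 1 fell of 9 tested at E16.5, and 7 rose and 1 fell of 11 tested at P0, beside the same shares of all genes. The gene that fell, Lhx2, is also on the cortex list below, and Nkx2-1, Lhx5 and Lhx6 are also among the cell markers. Of 14 homeobox genes used in the normal cortex, 9 were lower and 1 was higher at E16.5 (median log2 fold change -1.07), and 11 were lower and 1 was higher at P0 (-1.60), where 10.0% of all genes tested were lower and the median of all genes was -0.01. Among them were Pou3f2 (log2 fold change -2.31 ± 0.18 SE at P0, adjusted p = 2.7e-09) and Lhx2 (-1.85 ± 0.15, adjusted p = 5.42e-09). In Eed-MADM none of these 14 genes was lower in the test and 2 were higher at P0, Zeb2 and Zfhx3.

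In cKO-Eed-MADM against control-MADM the 10 markers of the cortical excitatory lineage summed to 814 to 919 against 2088 to 2837 CPM at P0, with 7 of 10 lower, and to 1739 to 2168 against 4115 to 4292 CPM at E16.5, with 5 lower and 1 higher. Cajal-Retzius markers (4 of 5 higher at P0) summed to 263 to 796 against 86.6 to 120 CPM, markers of meninges and mesenchyme (4 of 6 higher) to 88.4 to 236.5 against 8.33 to 15.3 CPM, and microglia markers (4 of 5 higher) to 104 to 223 against 6.02 to 18.7 CPM. At E16.5 Cajal-Retzius markers (3 of 5 higher) summed to 186 to 467 against 18.4 to 57.5 CPM, markers of meninges and mesenchyme (1 of 6 higher, 3 tested) to 9.96 to 24.3 against 4.55 to 9.30 CPM, and microglia markers (2 of 5 higher, 3 tested) to 5.90 to 44.7 against 0.54 to 1.45 CPM. Markers of the subpallium and interneurons were higher at E16.5 (6 of 8 called, 267 to 522 against 12.2 to 32.8 CPM) and lower at P0 (4 of 8 called, 192 to 267 against 375 to 923 CPM). Dlx1, Dlx2, Dlx5, Dlx6, Nkx2-1 and Lhx6 of this list are themselves homeobox genes, so its sum is no independent measure of these cells. Gad1, which is not a homeobox gene, was among those called at E16.5. Endothelial markers summed to 0.201 to 4.91 against 0.413 to 1.03 CPM at E16.5 and to 9.96 to 39.8 against 2.33 to 13.3 CPM at P0, with overlap at both ages. Of these 5 markers 1 passed the count limit at P0, none at E16.5, and none was called. Kdr, 1 of the 5, was at 0 CPM in control-MADM at both ages and averaged 0.842 and 2.22 CPM in cKO-Eed-MADM. Of 3 red blood cell markers none was called at either age. Of the choroid plexus and cortical hem markers, 1 was called at P0, Lmx1a, which is also on the list of further homeobox genes above. In Eed-MADM at P0, subpallium and interneuron markers summed to 334 to 611 CPM with 1 of 8 lower against control-MADM (Dlx2, log2 fold change -0.73 ± 0.18 SE, adjusted p = 0.0408), and Cajal-Retzius markers to 119 to 234 CPM with none called. None was called either among the markers of meninges and mesenchyme (8.40 to 35.2 CPM), microglia (1.27 to 92.6 CPM) and the excitatory lineage (2014 to 2648 CPM). The part of these cells in the members' levels was not tested.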

How the data were processed

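Sorted cells of neocortex were profiled by Smart-Seq2. The authors deposited unnormalized counts of uniquely aligned reads for each gene in 116 libraries, made with STAR (mm10/GRCm38). For the annotation, a release was not given in the sources used here. The unstranded column was used, so reads of overlapping genes cannot be told apart. Reads on no gene or on several genes (13.4% to 40.1% of uniquely aligned reads) entered neither library sizes nor tests. Symbols and coordinates came from a GRCm38 annotation matching 53274 of 53379 identifiers.

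Groups came from the sample labels, which name no batch. The study also removed samples for low correlation with replicates or for many reads in the deleted part of Eed. Those limits were not applied here, so some libraries used here may be ones that the study left out. Each age was fitted with all 3 groups in edgeR 4.0.16 (R 4.3.3, TMM, robust quasi-likelihood test in its version 3 form), requiring mean counts over 1 (E12.5) or over 10 (later ages), and an adjusted p under 0.05 was called (Benjamini-Hochberg, all genes tested). Folds against a group with no read (3 counts over the group) or with 1 to 3 reads use reads summed over each group per summed effective depth. Other fold changes are fitted. Counting intervals (exact binomial, 95%) cover counting error only.

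Members named with all values were, per comparison and age, up to 6 called with the lowest adjusted p and a mean of at least 1 CPM, the 4 highest per kb in control-MADM, and up to 4 called lower or called in the change from E16.5 to P0. Up to 3 called genes were named per list. Other names were chosen after their values were seen. The members and all lists were chosen with earlier results of these data known. Alternatives were DESeq2 1.42.0, its size factors in edgeR, the newer quasi-likelihood form, no filter, edgeR's filterByExpr, all green libraries, fits of 2 groups, a block for the replicate number, either strand column, and leaving out each library of groups of 2 to 5. The E12.5 fits without Eed-MADM replicate 9, alone or with cKO-Eed-MADM replicate 3, were added after seeing the data. The fits were tested on simulated counts. One gene of the lists is not reported here.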

Additional observations from a re-analysis of the deposited data

Results flagged for a closer look

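In groups of 4 to 10 libraries, a named member with a mean of at least 10 CPM was examined for 1 library that stood apart by Dixon's test. This was done for 79 groups and 11 stood out. The chance rate of about 1 in 20 holds for normal, independent values, which skewed CPM from shared libraries are not. No excess is therefore read from this number. In E12.5 Eed-MADM replicate 9, Lhx1 was at 161.9 CPM, Isl1 at 683.5 CPM, Barhl2 at 169.7 CPM and Shox2 at 87.19 CPM. At the same age Prrx2 was at 124.7 CPM in Eed-MADM replicate 7 and at 44.86 CPM in cKO-Eed-MADM replicate 2, Isl1 was at 37.65 CPM in control-MADM replicate 1, and Otx2 was at 364.1 CPM in cKO-Eed-MADM replicate 3. At P0, cKO-Eed-MADM replicate 2 had the highest level of Lhx1 (35.86 CPM), Isl1 (62.84 CPM) and Otx2 (64.32 CPM).

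Vax2 was present in red and yellow cells of cKO-Eed-MADM, which the comparisons did not use, above the red and yellow control-MADM libraries. At E13.5 the red libraries held 20.58 and 27.16 CPM and the yellow libraries 43.34 and 10.62 CPM. At E16.5 red replicates 1 and 2 held 84.31 and 91.01 CPM. At P0 it was at 61.85 CPM in yellow replicate 2 and at 76.23 CPM in red replicate 2, while the library labelled red replicate 1 held Vax2 at 0 CPM.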

How the results depend on the processing

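Over the 10 alternative settings and the fits that left out 1 library each, no named fold change turned its direction. Of 58 named calls, 49 were kept in each alternative in which the gene was tested, and 9 were lost at least once. An alternative in which the gene was not tested does not count as a loss, so Isl2 at P0 rests on 12 alternatives and not 19. The 9 lost were those of Eed-MADM against control-MADM (Vax2 at E16.5 and Irx2, Isl1 and Barx1 at P0), Lhx9, Barhl2 and Otx2 against Eed-MADM at E16.5, Lhx9 against control-MADM at E16.5 and Barhl2 against Eed-MADM at P0. Lhx9 against Eed-MADM at E16.5 was lost without Eed-MADM replicate 2 or cKO-Eed-MADM replicate 1 or 3 (adjusted p = 0.0545 to 0.0897). Barhl2 against Eed-MADM at P0 was lost without cKO-Eed-MADM replicate 2 and with the replicate block (adjusted p = 0.0609 and 0.116). Numbers of members called moved as follows, and the cause was not tested, except that fewer members passed the count limit with the strand columns and with only the 2 groups of Eed-MADM against control-MADM (6 in place of 21 at E16.5, 10 in place of 28 at P0). At E12.5, cKO-Eed-MADM against Eed-MADM gave 1 without a filter and 1 with the replicate block. At E13.5, cKO-Eed-MADM against control-MADM gave 3 with DESeq2, 3 without a filter, and 1 each with the newer quasi-likelihood form, all green libraries, only the 2 groups, the replicate block and the second strand column, and Eed-MADM against control-MADM gave 1 without a filter and 1 with all green libraries. At E16.5, cKO-Eed-MADM against control-MADM gave 26 without a filter and 22 with only the 2 groups, cKO-Eed-MADM against Eed-MADM gave 28 without a filter, and Eed-MADM against control-MADM gave 3 with DESeq2, 3 without a filter, and 0 each with the newer form, only the 2 groups and the first strand column. At P0, the strand columns gave 13 and 14 for cKO-Eed-MADM against control-MADM and 11 and 12 against Eed-MADM, and Eed-MADM against control-MADM gave 11 with DESeq2, 2 with only the 2 groups and 3 with the replicate block. The change from E16.5 to P0 gave 1 (cKO-Eed-MADM) and 1 (Eed-MADM) with DESeq2, and 3 for cKO-Eed-MADM without a filter. Leaving out 1 library gave 12 to 19, 0 to 2 and 11 to 17 members at E16.5 and 21 to 28, 3 to 6 and 18 to 26 at P0 (cKO-Eed-MADM against control-MADM, Eed-MADM against control-MADM, cKO-Eed-MADM against Eed-MADM), 0 to 1 at E13.5 for cKO-Eed-MADM against control-MADM (Vax2; 1 without control-MADM replicate 3 or Eed-MADM replicate 2 or 6) and 0 to 1 for the cKO-Eed-MADM change. Eed-MADM at E16.5 gave 0 without any one control-MADM library and 2 without Eed-MADM replicate 5, and at P0 gave 3 without control-MADM replicate 1, 5 or 6 or cKO-Eed-MADM replicate 3. Same-numbered libraries had a median r of deviations of -0.02, -0.08, 0.02 and 0.05 from E12.5 to P0. The lowest pairs were at -0.17, -0.10, -0.10 and -0.11 and the highest at 0.15, -0.01, 0.13 and 0.33 (0.25 for differently numbered pairs of P0), so the replicate numbers were not taken to pair the samples. The replicate block gave 15, 1 (Isl1 in place of Vax2) and 16 members at E16.5 and 24, 3 and 19 at P0. With fewer than 3 reads over a group, absence of a member cannot be told from a level under 0.0676 to 0.436 CPM, depending on group and age.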

Other observations

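Red cells of Eed-MADM are Eed+/+ and yellow cells Eed+/- in the same heterozygous tissue. In the red and yellow libraries of Eed-MADM that passed the depth limits at P0, 1 of the 47 members lay above all 4 red and yellow control-MADM libraries (2.39% of all genes with a read). In cKO-Eed-MADM at E16.5, where all colors are Eed-/-, both red libraries lay above the 3 red and yellow control-MADM libraries for 34 of the 47 members (17.6% of all genes). At P0 the 3 red and yellow libraries of cKO-Eed-MADM lay above control-MADM for 6 members (4.75%), and the yellow library alone above the yellow control-MADM libraries for 39 members (41.6%). The library labelled red cKO-Eed-MADM replicate 1 of P0 held Vax2, Isl1 and Otx2 at 0 CPM, while Msx1 was at 96.1 CPM, Lhx9 at 50.4 CPM, Barx1 at 7.93 CPM and Eed at 34.5 CPM, where the 4 red and yellow control-MADM libraries of P0 held Eed at 24.8 to 34.8 CPM. Its Eed level goes against its label, and the count of 6 members includes it. The library held 13133 genes with a read, against 18385 in red replicate 2 and 18499 in yellow replicate 2 of the same group. Whether its levels of 0 CPM are missed reads was not tested. Red replicate 2 and yellow replicate 2 of the same group held Eed at 5.67 and 11.8 CPM, Isl1 at 42.2 and 80.8 CPM and Otx2 at 73.3 and 34.9 CPM. These libraries were not tested.

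PRC2 subunits other than Eed were among the genes that fell in cKO-Eed-MADM at P0. Of 11 subunits, 4 were lower and none higher than in control-MADM (median log2 fold change -0.51), where 10.0% of all genes tested were lower. The 4 and the median include Eed, the deleted gene. The 4 also included Ezh2, the methyltransferase of the complex (-0.89 ± 0.15 SE, adjusted p = 0.000138), and Rbbp4 (-0.51 ± 0.10, adjusted p = 0.000844). In Eed-MADM at P0 1 subunit was lower, Eed itself.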
